A study of Mus musculus with 79 samples.

Results

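The class IIa histone deacetylases and the Mef2 transcription factors were followed as 7 genes in the deposited table of 55335 genes and 79 libraries of nuclei from adult mouse visual cortex. The 7 genes were Hdac4, Hdac5, Hdac7, Hdac9, Mef2a, Mef2c and Mef2d, matched by symbol through the GENCODE vM21 annotation, and all 7 had counts in all 79 libraries. They were picked by name after results of these data had been seen, so the values of Kir2.1 against mutant below describe the genes and support nothing further. Per the labels, the mice were VIP Cre wt/ki and INTACT wt/ki, so Cre acted in VIP interneurons, GABAergic cells named for the vasoactive intestinal peptide they make, and the INTACT allele tagged their nuclei for sorting. Mice were injected in visual cortex at postnatal day 55 to 60 with AAV-Syn1-Kir2.1-2a-mScarlet-KASH or with the same vector carrying Kir2.1(Mutant), and were put in the dark 3 days later. Other mice had no AAV, and for them no such age or delay is given. Kir2.1 is an inwardly rectifying potassium channel that lowers excitability, the Syn1 promoter drives it in neurons, and mScarlet-KASH marks the envelope of transduced nuclei. Every library, with or without AAV, was labelled as 10 days dark housed, so the vectors were compared in darkness only. The counts hold no measure of neuronal activity.

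Kir2.1 mice gave 10 VIP libraries of transduced nuclei and 10 of non-transduced ones, together with 8 libraries of neurons (transduced) and 10 of nuclei of every type (all nuclei, non-transduced). Mutant mice gave 9, 9, 8 and 9 of the same kinds, and mice without AAV gave 3 of VIP nuclei and 3 of all nuclei. A library held 50 to 100 sorted nuclei, and total counts ran from 3219899 to 9267246 (median 6170915). Reads of Kcnj2, the gene of Kir2.1, were at a median of 593 CPM (counts scaled to library size) in the Kir2.1-transduced VIP libraries and 814 CPM in the mutant ones. They had means of 15.2 and 22.4 CPM in the non-transduced VIP libraries, so in VIP nuclei this gene separated transduction but not the vectors. Among all non-transduced nuclei, 1 Kir2.1 library reached 157 CPM, above the lowest transduced Kir2.1 neuron library at 143 CPM. All 10 tested VIP markers were higher in VIP nuclei than in all nuclei, and all 12 excitatory markers were lower. In 32 of the 79 libraries the labelled sex went against Xist and the Y-linked genes. By those genes the Kir2.1 and mutant groups were balanced (6 and 4 of Kir2.1-transduced VIP, 5 and 4 of mutant), whereas all 6 libraries without AAV carried Y-linked RNA. Some results are therefore also given for the libraries whose RNA matched the label, named sex-matched below. That subset leaves out those 32 libraries, so its tests hold fewer. A call lost there does not by itself tie a result to sex. Kir2.1-transduced VIP replicate 1, Kir2.1 non-transduced VIP replicate 9 and Kir2.1-transduced neuron replicate 10 correlated least with their groups over all genes, at r = 0.900, 0.880 and 0.895.

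Class IIa histone deacetylases are large proteins with little deacetylase activity of their own that bind Mef2 factors and bring corepressors to Mef2 target genes. Calcium-dependent kinases phosphorylate them, after which 14-3-3 proteins hold them in the cytoplasm and Mef2 is freed. Neuronal activity is known to act on this switch from both sides, through kinases on the deacetylases and through calcineurin on Mef2, and Mef2 targets in neurons include early-response and synaptic genes.

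Hdac9, the class IIa member that includes a short splice form without the deacetylase domain, was the member that separated the 2 vectors. It spans chr12:34047580-34917095 (mm10, minus strand), 869.5 kb. RefSeq places 2 starts in it, and the 250 bases before each are shown because the transcript of this gene carried the largest difference of the 7. The sequences run 5′ to 3′ on the gene's strand, from RefSeq on GRCm38.p6, and capitals mark a match to the AP-1 motif TGANTCA.
Hdac9, chr12:34917096-34917345 (minus strand), before the start at 34917095: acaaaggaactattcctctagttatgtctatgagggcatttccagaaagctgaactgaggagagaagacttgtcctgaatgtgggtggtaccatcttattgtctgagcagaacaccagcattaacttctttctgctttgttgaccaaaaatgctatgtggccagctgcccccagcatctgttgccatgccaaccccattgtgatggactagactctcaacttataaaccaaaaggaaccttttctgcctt
Hdac9, chr12:34528890-34529139 (minus strand), before the start at 34528889: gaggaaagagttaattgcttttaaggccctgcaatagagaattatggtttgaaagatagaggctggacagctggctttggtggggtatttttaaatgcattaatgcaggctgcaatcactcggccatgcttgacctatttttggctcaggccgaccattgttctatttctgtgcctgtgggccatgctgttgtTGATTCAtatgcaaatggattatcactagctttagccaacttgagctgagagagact

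The match to AP-1, the motif of Fos and Jun dimers, begins 57 bases before the inner start, and 7.81% of 32851 RefSeq promoter windows of 300 bases hold that motif on either strand. Neither Hdac9 window held the cAMP response element TGACGTCA (1.79% of windows), the Mef2 motif (3.19%) or the CArG box of serum response factor (1.63%), each searched by exact letters on both strands. Among the 13 windows of the 7 genes, the Mef2 motif occurred in that of Hdac5, as CTATTTTTAG beginning 20 bases before the start, and in that of Mef2a, as CTAAAAATAG beginning 2 bases before it. AP-1 matches also lay 137 bases before 1 of the 3 Mef2c starts and 22 bases after 1 of the 4 Hdac7 starts. The counts do not tell the starts of a gene apart, and a match is a description of letters only.

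In transduced VIP nuclei, Hdac9 lay between 115 and 392 CPM with Kir2.1 (median 211) and between 459 and 952 CPM with the mutant (median 588). Every Kir2.1 library was thus below every mutant library. The groups did not overlap, in either direction, for 0.189% of the 21207 genes tested. The means were 226 ± 83.9 CPM (SD, n = 10) and 611 ± 140 CPM (SD, n = 9), a fold of 2.70. The log2 fold change was −1.44 ± 0.20 (SE), with a 95% interval from −1.83 to −1.04 (edgeR quasi-likelihood test, Benjamini-Hochberg adjusted p = 3.03e-06). In this comparison 1.39% of genes passed the threshold of 0.05 in either direction and 1.03% were lower, and 1 of the 7 members was called.

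Transduced neurons showed the same direction. There Hdac9 ran from 88.7 to 194 CPM with Kir2.1 (median 108) and from 259 to 521 CPM with the mutant (median 349), again without overlap, as for 1.52% of 15949 genes in either direction. The means were 127 ± 40.9 CPM (SD, n = 8) and 367 ± 94.9 CPM (SD, n = 8), a fold of 2.88. The log2 fold change was −1.53 ± 0.19, with an interval from −1.91 to −1.14 (adjusted p = 9.68e-06, edgeR). Of all genes tested in these neurons 5.63% were called in either direction and 3.45% were called as lower, and Hdac9 was the 1 member among them. The vector effects in VIP nuclei and neurons differed by 0.12 ± 0.28 on the log2 scale, with an interval from −0.44 to 0.69 that leaves room for differences in both directions (adjusted p = 1.00, 0.316% of genes called).

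Within the libraries with high Xist, mutant over Kir2.1 means of Hdac9 stood at 3.22-fold in VIP nuclei (6 and 5 libraries) and 3.45-fold in neurons (4 and 4). Within those with Y-linked RNA the ratios were 2.13-fold (4 and 4) and 2.37-fold (4 and 4). With the libraries whose RNA went against the labelled sex left out, the log2 fold changes were −1.46 (adjusted p = 0.00187) and −1.54 (adjusted p = 0.00772, edgeR). Without the libraries that stood apart they were −1.50 (adjusted p = 3.97e-06) and −1.64 (adjusted p = 3.85e-06).

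**Figure D1:**
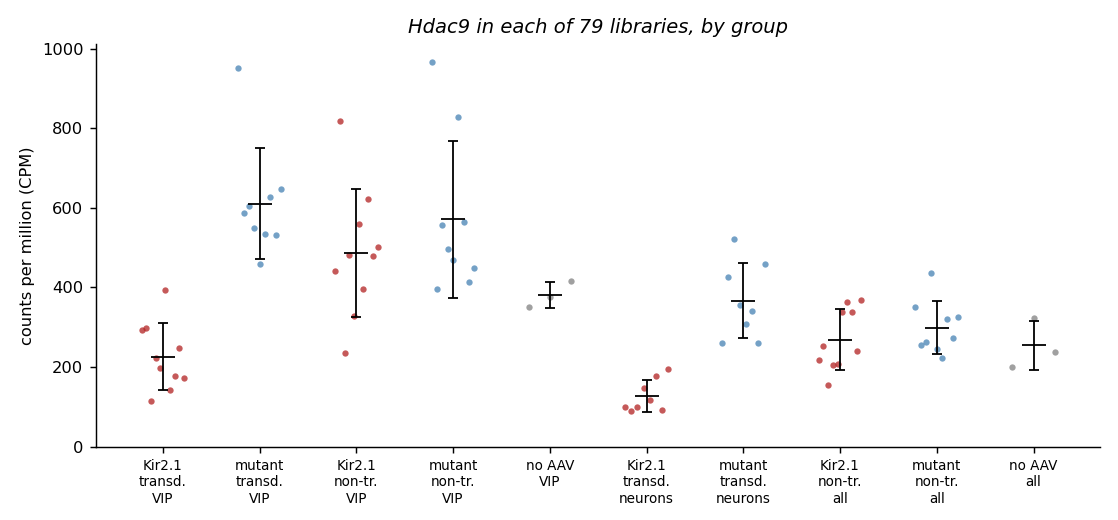
Hdac9 in CPM (vertical axis) in each of 79 libraries, by group (horizontal axis); points are libraries, black lines mark the mean ± SD, red is Kir2.1, blue the mutant and grey no AAV (transd., transduced; non-tr., non-transduced). The Kir2.1-transduced VIP libraries (115 to 392 CPM) and neurons (88.7 to 194 CPM) lie below all mutant-transduced libraries of the same population.

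The nuclei beside the transduced ones gave another picture. In non-transduced VIP nuclei Hdac9 ranged from 235 to 817 CPM with Kir2.1 (median 480) and from 397 to 967 CPM with the mutant (median 497), and the groups overlapped over most of that range. The log2 fold change was −0.23 ± 0.19, with an interval from −0.62 to 0.16 (adjusted p = 0.805, edgeR). In all non-transduced nuclei it ranged from 155 to 369 CPM (median 246) and from 223 to 437 CPM (median 272), and the log2 fold change was −0.15 ± 0.16 with an interval from −0.49 to 0.18 (adjusted p = 0.958, edgeR). In each of these comparisons 0 of all genes and 0 of the 7 members were called by edgeR, 1843 and 1289 genes had an unadjusted p under 0.05, and DESeq2 called 12 and 2.

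Transduced and non-transduced VIP nuclei were then compared within a vector. With Kir2.1, Hdac9 was 2.15-fold lower in the transduced nuclei (log2 fold change −1.11 ± 0.19, adjusted p = 0.000283, edgeR), among 0.769% of genes called. With the mutant the difference was 0.10 ± 0.20, with an interval from −0.30 to 0.50 (adjusted p = 1.00), among 0.00943% called. The vector effect was larger among transduced than among non-transduced VIP nuclei, by −1.20 ± 0.28 on the log2 scale (adjusted p = 0.0327, edgeR), in a test that called 0.401% of genes and shares its Kir2.1-transduced libraries with the comparisons above. Leaving out each library in turn kept that adjusted p between 0.00801 and 0.0484. With the libraries whose RNA matched the labelled sex alone, the difference was −1.44 ± 0.36 and was not called (adjusted p = 0.324).

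The 3 VIP libraries without AAV had 351, 375 and 415 CPM of Hdac9. They lay below all 9 mutant-transduced VIP libraries, groups that do not overlap, as for 2.33% of genes. Of the 10 Kir2.1-transduced VIP libraries, 9 lay below all 3 without AAV. The highest Kir2.1-transduced one, at 392 CPM, lay above those at 351 and 375 CPM and below that at 415 CPM. Hdac4, Hdac7 and Mef2c of the 3 libraries without AAV also lay below all 9 mutant ones, and none of these was called. Against them the mutant was at 0.68 ± 0.29 (adjusted p = 0.537) and Kir2.1 at −0.75 ± 0.27 (adjusted p = 0.366) on the log2 scale, and neither was called by edgeR, in tests that called 0.0283% and 0.222% of genes. The same 3 libraries serve both comparisons. The medians over all genes tested were 0.08 and 0.10, so both fold changes stand against a small general shift, and by their RNA these mice differ in sex from most of the injected ones. In all nuclei the libraries without AAV had 201, 239 and 323 CPM, of which 1 lay below all 9 mutant ones and the other two within their span, at a log2 difference of 0.23 ± 0.24 (adjusted p = 0.758) against a median over all genes of 0.11, with 0.225% called.

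The other 3 class IIa members and the 3 Mef2 genes did not pass the test for Kir2.1 against mutant in any of the 4 populations. Hdac4, which like Hdac5 moves between nucleus and cytoplasm with activity in neurons, ranged from 31.4 to 151 CPM with Kir2.1 (median 97.0) and from 103 to 173 CPM with the mutant (median 134) in transduced VIP nuclei. Those groups overlapped, and the log2 fold change was −0.47 ± 0.20 (adjusted p = 0.304, edgeR). Hdac5 stood at 9.91 to 51.4 CPM (median 31.7) against 17.8 to 80.9 CPM (median 44.1), with a log2 fold change of −0.53 ± 0.29 whose interval ran from −1.10 to 0.05 (adjusted p = 0.516). In neurons the values of Hdac4 and Hdac5 were −0.08 ± 0.14 and −0.13 ± 0.30.

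Hdac7, best known from thymocytes and blood vessels, came nearest to the threshold in neurons. With Kir2.1 its 8 libraries lay between 56.7 and 122 CPM (median 71.1) and with the mutant between 34.6 and 74.3 CPM (median 43.4), with some overlap. The log2 fold change was 0.63 ± 0.20 with an interval from 0.21 to 1.05, opposite in sign to Hdac9, and it was not called by edgeR (adjusted p = 0.0673). DESeq2 gave an adjusted p of 0.0442, and leaving out mutant replicate 6 gave 0.0369 with edgeR. In VIP nuclei Hdac7 was at −0.31 ± 0.25 (adjusted p = 0.760), and the difference between the populations was −0.91 ± 0.33 (adjusted p = 0.365).

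The Mef2 genes encode the DNA-binding partners of these deacetylases. Mef2c, the Mef2 factor with the highest level here, ranged from 395 to 831 CPM with Kir2.1 and from 438 to 669 CPM with the mutant in transduced VIP nuclei, with means of 519 ± 125 CPM (SD, n = 10) and 542 ± 75.1 CPM (SD, n = 9). Its log2 fold change was −0.06 ± 0.14 with an interval from −0.34 to 0.21 (adjusted p = 0.952). In neurons it was 0.11 ± 0.14 (adjusted p = 0.775), with an interval from −0.19 to 0.40. Mef2d was at 0.00 ± 0.26 in VIP nuclei and 0.06 ± 0.17 in neurons. Mef2a was at −0.05 ± 0.20 and −0.35 ± 0.17 (adjusted p = 0.9753 and 0.276). Beyond Hdac9, the 95% intervals of all members in the 4 vector comparisons lay between −1.10 and 1.05 on the log2 scale. Those of Hdac5 and Hdac7 set these outer bounds and those of Mef2c were narrower, as given above.

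**Figure D2:**
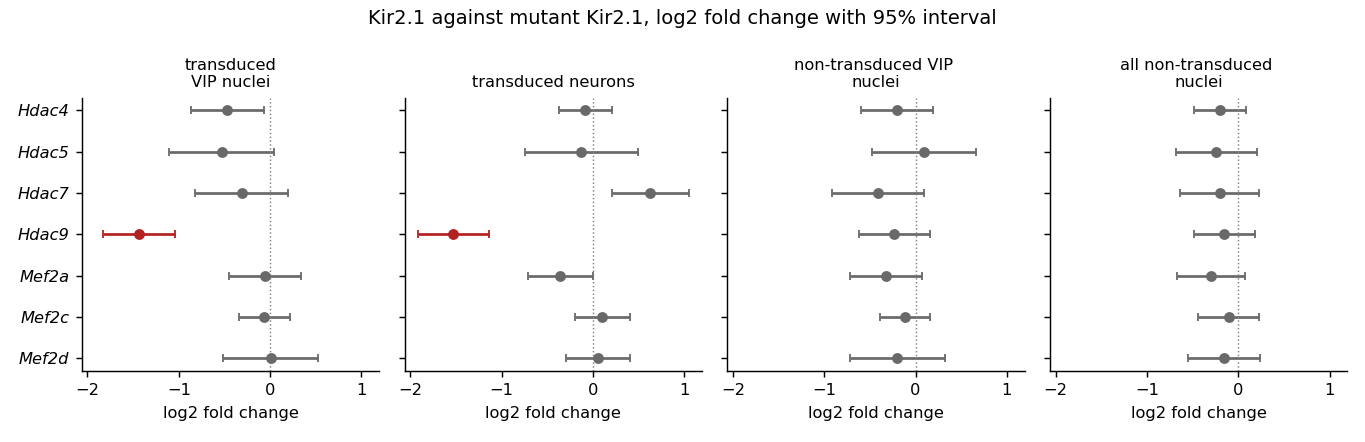
Log2 fold change of Kir2.1 against mutant (horizontal axis) with its 95% interval for the 7 genes (vertical axis) in 4 populations; red marks an adjusted p under 0.05. Hdac9 is at −1.44 and −1.53 in the 2 transduced populations and at −0.23 and −0.15 in the 2 non-transduced ones.

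The order of Hdac9 over the 10 groups followed both population and vector. Its means fell from 611 CPM in mutant-transduced VIP nuclei to 571 in mutant non-transduced, 486 in Kir2.1 non-transduced and 381 CPM in VIP nuclei without AAV. Next came mutant-transduced neurons at 367 CPM and the 3 groups of all nuclei at 299, 269 and 254 CPM. Kir2.1-transduced VIP nuclei followed at 226 CPM and Kir2.1-transduced neurons were last at 127 CPM. Of the 9 steps between neighbours in that order, only the last exceeded the larger of the 2 SDs. Levels were scaled within each sorted population, so the order across populations is approximate. The highest group mean was 4.80 times the lowest for Hdac9, against 2.89 for Mef2c, 2.59 for Hdac7, 2.36 for Hdac5, 1.98 for Mef2d, 1.95 for Mef2a and 1.89 for Hdac4.

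**Figure D3:**
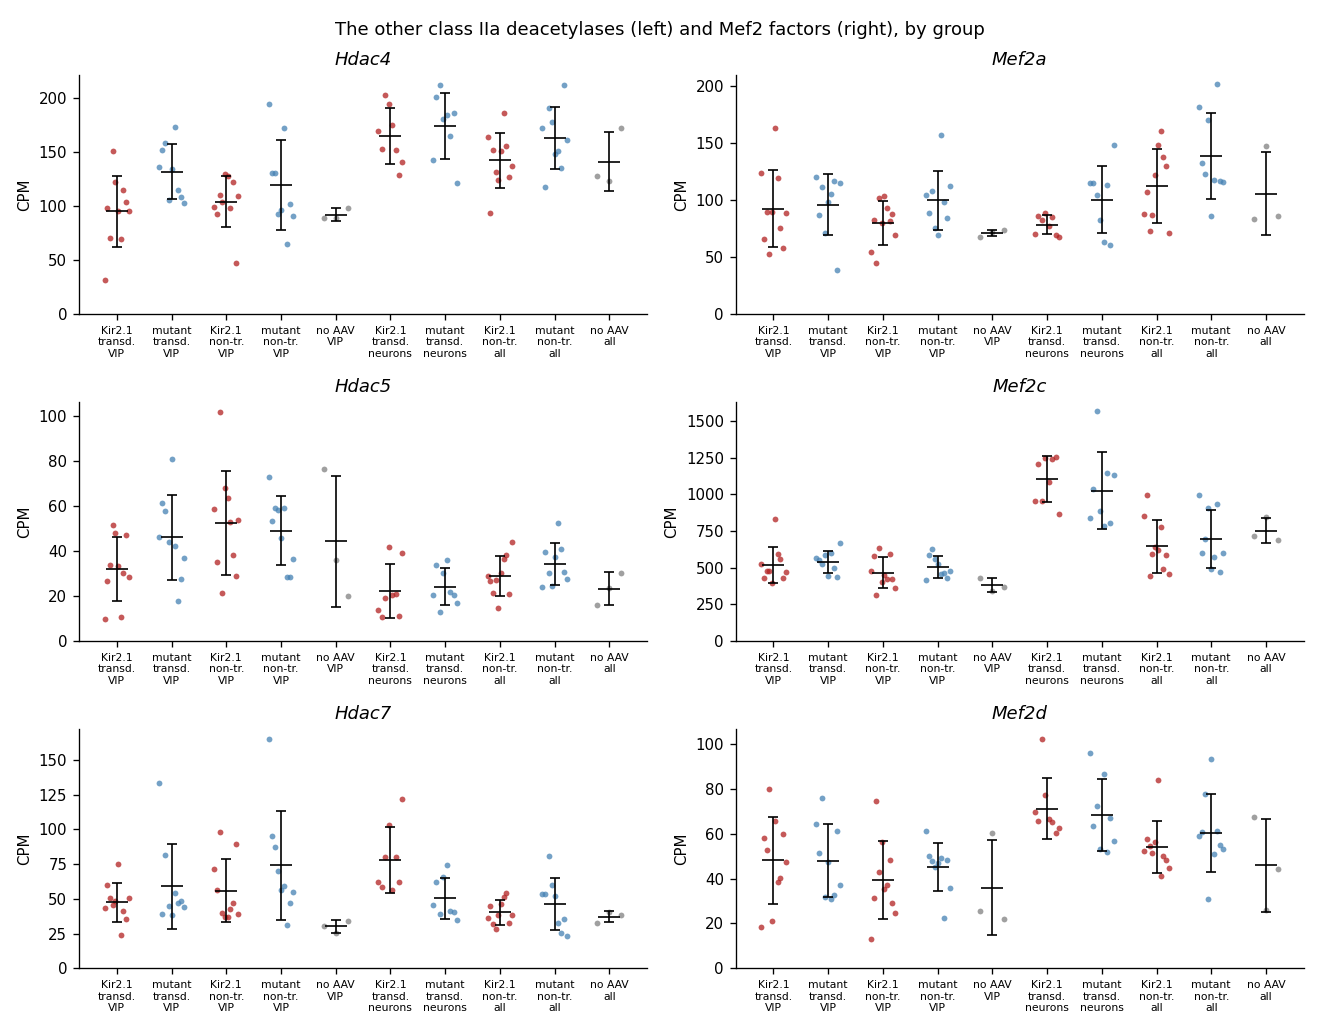
CPM (vertical axes, each gene with its own scale) of Hdac4, Hdac5 and Hdac7 (left) and Mef2a, Mef2c and Mef2d (right) in each library, by group; points are libraries, black lines the mean ± SD, red Kir2.1, blue mutant, grey no AAV. The red and blue groups of each population overlap in all 6 genes, and Mef2c is highest in the transduced neurons.

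VIP nuclei and all nuclei, both non-transduced, differed in 6 of the 7 members, in a comparison of 44 libraries that called 32.6% of all genes, 12.8% as higher and 19.7% as lower. Hdac9 was 0.92 ± 0.12 higher in VIP nuclei (adjusted p = 1.10e-08), Hdac5 0.79 ± 0.16 (adjusted p = 6.72e-05) and Hdac7 0.52 ± 0.16 (adjusted p = 0.00873) on the log2 scale. Mef2c was lower at −0.47 ± 0.10 (adjusted p = 0.000182), Mef2a at −0.43 ± 0.12 (adjusted p = 0.00278) and Hdac4 at −0.41 ± 0.11 (adjusted p = 0.00190). The counts of Mef2a may include reads of Lysmd4, an overlapping gene on the opposite strand, which could not be separated. Mef2d, at −0.36 ± 0.15, was not called (adjusted p = 0.0560, edgeR), though it was with DESeq2 (adjusted p = 0.0352) and with vector and replicate number as a block (adjusted p = 0.0342). The class IIa genes were thus split, with 3 higher and Hdac4 lower in VIP nuclei. With the sex-matched libraries alone Hdac7 was not called (adjusted p = 0.148). These libraries hold many cell types, and fewer cells of a type and less RNA per cell cannot be told apart.

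Between VIP nuclei and neurons that both carried the mutant vector, 17.9% of genes were called. Mef2c ranged from 438 to 669 CPM in VIP nuclei and from 786 to 1566 CPM in neurons (median 959), without overlap, as did 7.53% of genes. Its log2 difference was −0.96 ± 0.15 (adjusted p = 1.32e-06, edgeR). Hdac9 was higher in VIP nuclei by 0.69 ± 0.20 (adjusted p = 0.0110), a call that was lost in the sex-matched libraries (adjusted p = 0.339). Hdac5 was higher by 0.88 ± 0.32 (adjusted p = 0.0468), a call that was lost without the filter on low counts (adjusted p = 0.0527) and in the sex-matched libraries (adjusted p = 0.52596). Hdac4 was at −0.45 ± 0.18 and Mef2d at −0.56 ± 0.23, and neither was called (adjusted p = 0.0895 and 0.0896). With vector and replicate number as a block, Hdac4 and Mef2d were called (adjusted p = 0.0366 and 0.0478) and Hdac5 was not (adjusted p = 0.0721, edgeR). Hdac7 and Mef2a were at 0.18 ± 0.24 and −0.11 ± 0.21.

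**Figure D4:**
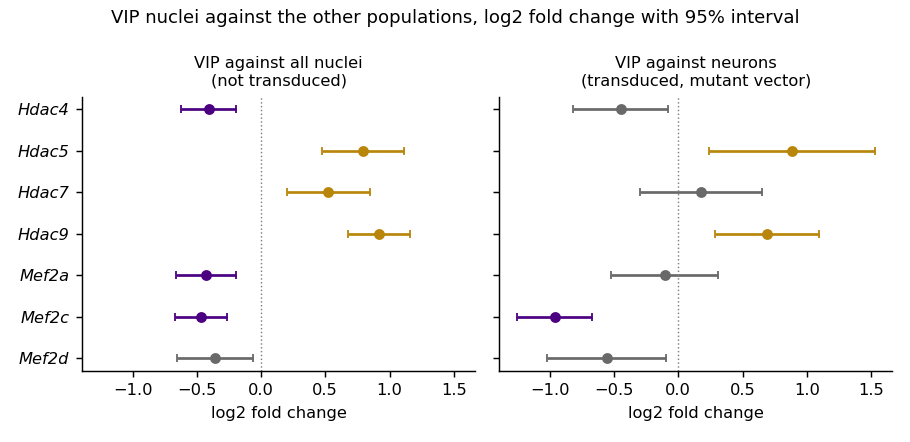
Log2 fold change of VIP nuclei against all nuclei (left) and of VIP nuclei against neurons (right) on the horizontal axes, with 95% intervals, for the 7 genes; gold marks higher and purple lower in VIP nuclei at an adjusted p under 0.05, grey not called. Mef2c lies at −0.47 and −0.96 and Hdac9 at 0.92 and 0.69.

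Levels of different genes were compared per kb of gene span, because the counts covered introns as well as exons. Within the Mef2 family Mef2c held most of the summed level, from 58.0% ± 7.72 (SD, n = 9) in all nuclei of mutant mice to 69.5% ± 4.903 (SD, n = 8) in Kir2.1-transduced neurons. Mef2d held 22.4% to 29.4% as group means and Mef2a 5.70% to 13.3%, with reads of the overlapping Lysmd4 not separated from those of Mef2a. Among the class IIa genes Hdac9, despite the highest counts, held 20.0% ± 4.64 (SD, n = 9) of the family level in mutant-transduced VIP nuclei and 11.2% ± 4.58 (SD, n = 10) in Kir2.1-transduced ones. In neurons its share was 16.02% ± 5.41 (SD, n = 8) with the mutant and 5.10% ± 0.965 (SD, n = 8) with Kir2.1. Hdac7 held 35.3% ± 4.07 and 52.2% ± 3.97 of the family level in those neurons (SD, n = 8 each). Shares within a family are bound to sum to the whole, so the fall of one raises the others. They also rest on the length chosen. Hdac9 spans 869.5 kb, against 35.7 kb for Hdac5 and 51.8 kb for Hdac7, while their exons cover 14665, 8780 and 6755 bases. Division by exon length would give Hdac9 a larger share, and shares per kb of exon were not computed.

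For Kir2.1 against mutant, 1.39% of all genes were called in transduced VIP nuclei and 5.63% in transduced neurons, in either direction. None of the 7 other histone deacetylases, 6 genes of the corepressor complex or 13 Mef2 activators, phosphatases and coregulators was called there. Nor was any of 6 tested 14-3-3 genes, and Hdac3 is on both of the first 2 lists. At those shares, lists this short hold few calls or none in any case. The medians of those lists lay between −0.11 and 0.30 on the log2 scale, beside 0.04 over all genes in both populations. Among kinases that export class IIa proteins, Camk2a, a main kinase of excitatory synapses, rose in VIP nuclei from 535 ± 49.1 CPM (SD, n = 9) with the mutant to 990 ± 169 CPM (SD, n = 10) with Kir2.1. Its log2 fold change was 0.89 ± 0.12 (adjusted p = 1.52e-06), and it was the 1 called of 16. In neurons Camk4, a nuclear calcium-dependent kinase, fell by 0.70 ± 0.15 (adjusted p = 0.00534) and Camk2d by 0.71 ± 0.21 (adjusted p = 0.0392), 2 of 14 tested. The call of Camk2d was lost in 9 of 16 fits that left out a library and with the replicate number as a block (adjusted p = 0.131), and in the sex-matched libraries neither gene was called (adjusted p = 0.0629 for Camk4 and 0.244 for Camk2d).

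The 7 known Mef2 targets of neurons included called genes in both populations, with list medians of −0.47 in VIP nuclei and −1.13 in neurons. Several of them are also direct targets of other activity-regulated factors, and the list was chosen with these results known. Nr4a1, an early-response nuclear receptor, fell from 33.7 ± 16.9 to 4.63 ± 3.47 CPM in VIP nuclei (SD, n = 9 and 10) and from 45.9 ± 25.9 to 3.53 ± 2.57 CPM in neurons (SD, n = 8 each). Its log2 fold changes were −2.86 ± 0.40 (adjusted p = 3.30e-06) and −3.70 ± 0.48 (adjusted p = 1.70e-05). In neurons Homer1, a scaffold of glutamate synapses, fell by 1.13 ± 0.20 (adjusted p = 0.000618) on the log2 scale. Bdnf, a secreted growth factor, fell by 2.49 ± 0.60 there (adjusted p = 0.0111). In the sex-matched libraries neither was called (adjusted p = 0.0898 and 0.133), and with the replicate number as a block Bdnf was not (adjusted p = 0.0825). In VIP nuclei those 2 were at −0.47 ± 0.24 and −0.99 ± 1.23 and were not called. Bdnf was barely detected there, with means of 1.08 CPM with Kir2.1 and 2.17 CPM with the mutant. The protocadherin gene Pcdh10 was called in VIP nuclei at −0.70 ± 0.19 (adjusted p = 0.0473) and stood at −0.43 ± 0.19 in neurons. Its call in VIP nuclei was lost in 15 of 19 fits without 1 library, with adjusted p up to 0.106. It was also lost in 5 other alternatives, with adjusted p from 0.0521 without the filter on low counts to 0.155 in the sex-matched libraries (edgeR). Arc was at −1.85 ± 0.69 in neurons (adjusted p = 0.123) and at 0.47 ± 1.08 in VIP nuclei, where its means were under 3 CPM. Jun, with means under 4 CPM, was at 0.68 ± 1.03 in VIP nuclei and 0.31 ± 0.76 in neurons.

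**Figure D5:**
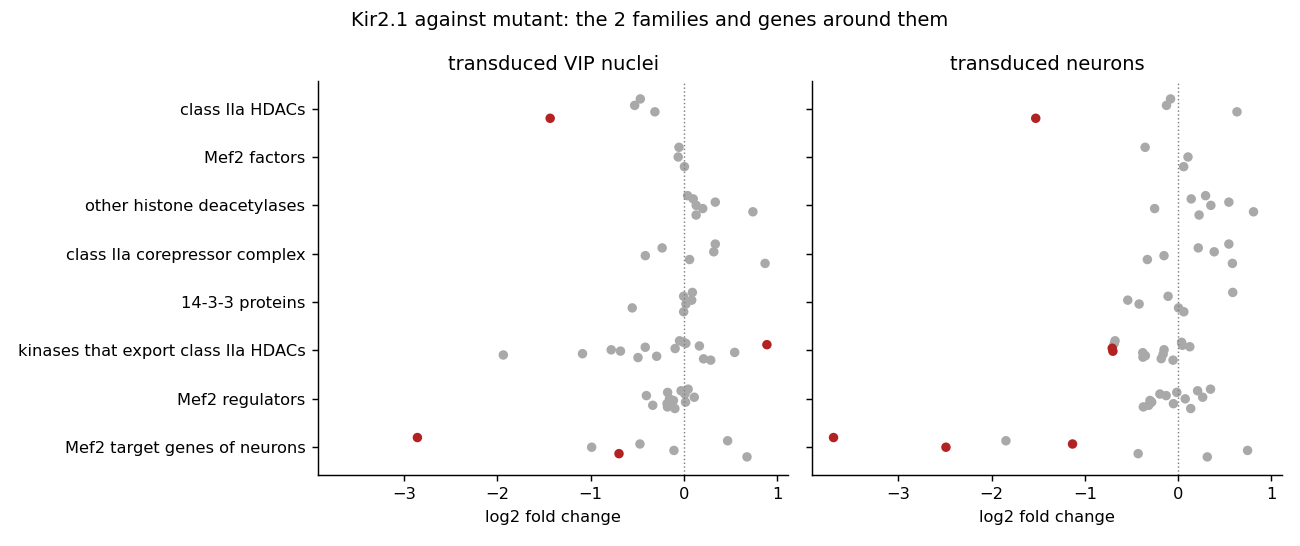
Log2 fold change of Kir2.1 against mutant (horizontal axis) for each tested gene of 8 lists (vertical axis) in transduced VIP nuclei (left) and neurons (right); points are genes and red marks an adjusted p under 0.05. Hdac9 and the target genes Nr4a1, Pcdh10, Homer1 and Bdnf are the called genes that were lower outside the kinases.

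Cell type markers moved with the vector beside these results. In transduced VIP nuclei, 5 of 10 tested VIP markers were lower with Kir2.1, and the summed level of all 11 on the list ran from 7849 to 14551 CPM against 19791 to 22083 CPM with the mutant. The 9 pan-GABAergic markers summed to 4102 to 9926 CPM (median 5455) against 6090 to 10548 CPM (median 8157), with 2 of 9 lower. The 9 markers of other interneurons summed to 377 to 604 CPM (median 454) against 559 to 858 CPM (median 707), with 1 of 8 tested lower, and the 5 pan-neuronal ones to 2606 to 4111 CPM (median 3059) against 3555 to 4473 CPM (median 3920), with 1 lower. The 12 excitatory markers, none of them called in these VIP nuclei, summed to 47.7 to 220 CPM (median 94.6) with Kir2.1 and 41.8 to 84.3 CPM (median 59.7) with the mutant. In neurons 3 of 7 tested pan-GABAergic markers were lower with Kir2.1, among them Gad1 and Dlx6os1, with summed levels over the 9 on the list of 71.5 to 819 CPM (median 371) against 415 to 1122 CPM (median 908). The 12 excitatory markers summed to 982 to 1501 CPM (median 1223) with Kir2.1 and 1050 to 1568 CPM (median 1230) with the mutant, and 1 of them, Nrgn, was higher. The 8 astrocyte markers summed to 210 to 303 CPM against 373 to 481 CPM in these neurons, with Slc1a2 and Aldh1l1 lower. The part of these differences in the Hdac9 and Camk2a values was not tested.

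Across all 79 libraries, the genes whose log2(CPM + 1) followed Hdac9 most closely among 13523 genes with a mean of at least 5 CPM were Arhgap26 (Pearson's r = 0.885), Zfp804b (0.868) and Thrb (0.859). For Mef2c they were Cntn3 (0.840), Rgs6 (0.826) and Cdh12 (0.822), and for Hdac4 Myrip (0.814), Gfod1 (0.778) and Trio (0.770). The genes nearest to Hdac5 (Gm3764), Hdac7 (Ptprn2) and Mef2d (Map6) reached 0.628, 0.653 and 0.647. Mef2a was nearest to Lysmd4 (0.849), a gene on the opposite strand that shares 76168 bases with it and holds a similar number of counts, 50270 against 47965, so reads of the 2 could not be separated. Of the 6230 bases of 1700113A16Rik, on the other strand, 531 overlap Mef2d, and its counts came to 16.04% of those of Mef2d. Slc48a1 shares 29 bases with Hdac7 on the other strand, and its counts came to 147% of those of Hdac7. How many of those counts lie in the shared bases is not known. The 4 genes within Hdac9 together came to 0.179% of its counts. These correlations span groups that differ in cell type and vector, and the libraries share their depth scaling.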

How the data were processed

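Counts per gene were deposited by the authors as raw whole numbers, without normalization, in 1 table. STAR 2.5.3a, HOMER 4.9.1, cutadapt 1.18 and the build mm10 come from the submitters' processing notes. How reads were counted is not given in the sources used here. In all 145 pairs of a well-counted gene nested in another, 76 of them on opposite strands, the outer gene had at least as many counts in every library, so the table covers introns and does not separate strands. Of the identifiers, 55154 matched GENCODE vM21 and 181 (0.0264% of counts) did not. No 2 libraries were identical.

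Genes were tested with edgeR 4.0.16 in R 4.3.3 (quasi-likelihood F test, TMM scaling, filterByExpr at its minimums of 10 counts and 15 in total, two-sided, Benjamini-Hochberg over all genes tested, threshold 0.05). Fits held 41 VIP libraries, 22 of all nuclei, 16 of neurons, 35 transduced or 44 non-transduced libraries. All 7 members passed the filter in each of the 13 comparisons. CPM are counts scaled to the TMM library size within a sorted population. DESeq2 1.42.0, other scaling and filters, sex terms, replicate blocks and left-out libraries were alternatives. Libraries were left out one by one only in the fits of VIP nuclei, all nuclei and neurons. The comparisons of VIP nuclei with neurons or with all nuclei, and the interaction with population, were not run that way. The test was checked on simulated counts. Members and gene lists were chosen with earlier results of these data known. Named besides the members were up to 4 called genes per list, the Mef2 targets, of which 1 is not reported here, and the 3 genes most alike to each member. Titles number biological replicates, but no label ties them to animals, so p-values measure the spread between libraries. Libraries are amplified by 17 PCR cycles without molecular identifiers.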

Additional observations from a re-analysis of the deposited data

Results flagged for a closer look

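Of 56 sets of a member in a group of 4 to 10 libraries, 9 held a library far from the others by Dixon's test. Its rate of about 1 in 20 by chance holds for normally distributed values. Here CPM were used without logarithm and the sets share libraries, so that rate is no yardstick for the 9. All but that of Hdac4 were the highest value of their set. Mutant-transduced VIP replicate 1 had 952 CPM of Hdac9, with the next at 647, and 133 CPM of Hdac7, with the next at 81.4. Mutant non-transduced VIP replicate 1 had 165 CPM of Hdac7 (next 95.4), and replicate 6 of that group had 157 CPM of Mef2a (next 112). Kir2.1 non-transduced VIP replicate 9, which also stood apart over all genes, had 47.5 CPM of Hdac4, with the next at 92.4. For Mef2c, Kir2.1-transduced VIP replicate 6 had 831 CPM (next 590) and mutant-transduced neuron replicate 4 had 1566 CPM (next 1142). For Mef2d, Kir2.1 replicate 6 of all nuclei had 83.9 CPM (next 57.7) and Kir2.1-transduced neuron replicate 5 had 102 CPM (next 77.3). The vector effect on Hdac9 differed between transduced and non-transduced VIP nuclei by −1.20 on the log2 scale, by the interaction term.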

How the results depend on the processing

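Hdac9 kept its direction and its call for Kir2.1 against mutant in all 8 alternatives of VIP nuclei (log2 −1.50 to −1.43, adjusted p up to 0.00187) and of neurons (−1.71 to −1.52, up to 0.00772), and with each library left out (−1.56 to −1.34 and −1.64 to −1.45). The number of members called for Kir2.1 against mutant in neurons was 1, was 2 with DESeq2 and ran from 1 to 2 over left-out libraries, Hdac7 being the second. With the libraries that match their labelled sex alone, the interaction of vector and transduction called 0 members in place of 1, and VIP against neurons 1 in place of 3. That setting was added after the data were seen and leaves fewer libraries to the tests. Among member values, 0 reversed with a call in any alternative, 7 gained a call and 6 lost one. In all nuclei no library stood apart, so leaving such libraries out could not be run there.

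No label ties a replicate number to an animal, and in no 2 groups did every same-numbered pair correlate above 0.1 (at most 4 pairs did). Within a vector, however, all 22 sets of libraries with 1 number carried RNA of 1 sex, and up to 6 of 9 libraries (mutant VIP, transduced and not) and 5 of 10 (Kir2.1 VIP) correlated best with their own number, so shared animals within a vector are a hint from the data. Between vectors at most 2 did. The block of replicate number alone joins same-numbered Kir2.1 and mutant libraries, which come from different mice. In neurons the 7 such pairs had a median r of −0.04. That block moved the Bdnf call in neurons to an adjusted p of 0.0825 and that of Camk2d to 0.131. With the block of vector and number, the adjusted p for VIP against neurons was 0.0366 for Hdac4, 0.0478 for Mef2d and 0.0721 for Hdac5, and that of Mef2d for VIP against all nuclei was 0.0342. The block left the calls of Hdac9 in place.

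Counts over all genes moved by more than 1.5 times in places. For Kir2.1 against mutant in neurons they were 898, 1360 with DESeq2, 526 with the block of replicate number alone and 193 in the sex-matched libraries. In VIP nuclei they were 294 and, sex-matched, 60. For transduced against non-transduced Kir2.1 nuclei they were 163, 256 with the block of vector and number and 76 sex-matched. The interaction with transduction gave 85, 719 without a filter and 3 sex-matched. That with population gave 58, 103 with DESeq2, 274 without a filter, 38 with the block of replicate number alone and 7 sex-matched. Against no AAV, all nuclei gave 48, 317 with DESeq2 and 30 with the block of replicate number alone. In the same order, mutant VIP nuclei against no AAV gave 6, 57 and 34, and Kir2.1 VIP nuclei 47, 137 and 79. Leaving out replicate 1, 2 or 3 of VIP nuclei without AAV lowered the last 2 to 2, 3 or 1 and to 22, 17 or 19, and without no-AAV replicate 2 all nuclei gave 21. The interaction with transduction gave 52 or 48 without mutant-transduced VIP replicate 2 or 4 and 50 or 52 without mutant non-transduced VIP replicate 3 or 7. In the sex-matched libraries the calls of Camk4, Homer1 and Bdnf in neurons were also lost (adjusted p = 0.0629, 0.0898 and 0.133). The smallest count of a member in a library was 43, for Hdac5, against 522 for Hdac9, so the low genes carry the wider intervals.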

Other observations

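The level of Kcnj2 reads, which in transduced nuclei includes the vector, was set against Hdac9 across the libraries of each transduced group, as 4 relations chosen after the data were seen, on the log2(CPM + 1) scale. In Kir2.1-transduced VIP nuclei Pearson's r was −0.81 (permutation p = 0.00512, adjusted 0.00824) and Spearman's rho −0.87 (permutation p = 0.00198, adjusted 0.00608) over 10 libraries. Without the 2 libraries farthest from the median of Kcnj2, r was −0.67. In Kir2.1-transduced neurons r was −0.89 (exact permutation p = 0.00278, adjusted 0.00824) and rho −0.90 (exact p = 0.00456, adjusted 0.00608) over 8 libraries, and r was −0.79 without the 2 farthest. The mutant-transduced VIP libraries showed a like relation, with r = −0.80 (exact permutation p = 0.00618, adjusted 0.00824) and rho = −0.87 (exact p = 0.00451, adjusted 0.00608) over 9 libraries, and r = −0.66 without the 2 farthest. In mutant-transduced neurons r was −0.27 (exact permutation p = 0.552) and rho −0.14 (exact p = 0.752) over 8 libraries. Over all genes with a mean of at least 5 CPM, the median r with Kcnj2 lay between −0.02 and 0.02 in the 4 groups, and 0.818%, 0.776%, 2.66% and 27.5% of them had an r at or below that of Hdac9, in the order given.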
